A study of Mus musculus with 21 samples.

Results

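The replication-dependent histone genes, which encode the proteins that package newly made DNA, were followed in the epididymal fat of mice on 7 diets. A probe entered when its annotation named 1 gene of the histone naming series H1f1 to H1f6, H2ac, H2bc, H3c or H4c (or the older Hist names), and 26 genes of 16248 measured genes met this, through 27 probes. Where a gene had several probes, the probe was chosen by its level, as the one with the highest mean over all 21 arrays, and no comparison of diets entered that choice. The 26 genes were 5 linker histones (H1), 6 genes of H2A, 8 of H2B and 7 of H4. H3 had 0 such genes, because each measured H3 probe carried several symbols. By the reference gene table, 21 lie on chromosome 13 and 5 on chromosome 3.

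Histones H2A, H2B, H3 and H4 form the core around which DNA is wound, and H1 binds the DNA between cores. The replication-dependent genes lie in clusters, many encode near-identical proteins, and they are transcribed mainly in S phase, when a dividing cell copies its DNA. Their mRNAs mostly end in a stem-loop that is bound by the stem-loop binding protein SLBP rather than in a poly(A) tail. How the cDNA was primed, which bears on how well such mRNAs are seen, is not stated in the labels. In adipose tissue mature fat cells rarely divide, and dividing cells include progenitors and macrophages.

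Male C57BL/6J mice, 4 weeks old on arrival, were housed singly, acclimated for 1 week and fed for 12 weeks, and each group had 3 arrays. In the ND group fat supplied 10% of dietary energy, and in the HFD group, the high-fat diet, it supplied 40%. The remaining 5 groups also carry the high-fat label: BC with 0.3% by weight of the bacterium Bacillus coagulans, SMG with 0.3% steamed grain, L_FMG with 0.3% and H_FMG with 0.9% fermented mixed grain, and RMG, a code that the labels do not explain. The protocols state 10 mice per group for ND, HFD, BC and SMG. In the fit of all 21 arrays, each p-value uses a gene's spread among the 3 arrays of a group, pooled over every diet. This pooled value is not the spread of the compared groups alone. Values are log2 levels as deposited, where 1 log2 unit is a factor of 2, and array medians ran from 4.23 to 4.39. Of the adipose markers, Fabp4, a fatty acid carrier, ran from 12.0 to 12.3 and Adipoq, the hormone adiponectin, from 8.68 to 9.80. Of the male germ cell markers, included because some histone genes are testis forms, Ddx4 ran from 2.23 to 3.02, Prm1 from 3.95 to 5.45 and Odf1 from 10.9 to 11.6. In whole tissue, fewer cells of a type and less RNA per cell cannot be told apart.

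RefSeq gave a promoter window, 250 bases before to 50 after the gene's start in build GRCm38.p6, for 24 of the 26 genes, and H2bc21 and H4c14 were not matched. The bases before the start are printed for the 5 matched genes that passed the threshold in some comparison, since these carry the diet results. Capitals mark every match, on either strand, to 5 motifs: the TATA core TATAAA, the CCAAT box CCAAT, the octamer ATTTGCAT known from H2B promoters, an E2F-like site TTTGGCG, and GGTCCG, the core of a site known from H4 promoters. The windows are chr13:22035571-22035820 on the plus strand for H2bc12, chr3:96269450-96269699 on the plus strand for H2bc18, chr3:96220881-96221130 on the minus strand for H2ac20, chr13:23533625-23533874 on the plus strand for H2ac10 and chr13:23738557-23738806 on the plus strand for H1f2, each read 5′ to 3′ towards its gene.
H2bc12: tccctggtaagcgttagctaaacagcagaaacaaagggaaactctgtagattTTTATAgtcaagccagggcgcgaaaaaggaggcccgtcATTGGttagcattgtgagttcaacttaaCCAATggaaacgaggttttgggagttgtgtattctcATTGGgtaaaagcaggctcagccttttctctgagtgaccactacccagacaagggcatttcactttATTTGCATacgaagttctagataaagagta
H2bc18: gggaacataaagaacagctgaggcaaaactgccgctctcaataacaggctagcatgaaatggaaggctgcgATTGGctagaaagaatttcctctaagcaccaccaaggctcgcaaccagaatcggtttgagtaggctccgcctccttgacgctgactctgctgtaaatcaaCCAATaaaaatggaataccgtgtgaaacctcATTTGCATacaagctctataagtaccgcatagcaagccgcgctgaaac
H2ac20: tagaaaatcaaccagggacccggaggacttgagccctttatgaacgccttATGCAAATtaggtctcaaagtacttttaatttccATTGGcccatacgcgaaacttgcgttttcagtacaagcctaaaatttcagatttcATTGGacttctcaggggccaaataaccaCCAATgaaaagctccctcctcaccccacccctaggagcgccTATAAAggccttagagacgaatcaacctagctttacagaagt
H2ac10: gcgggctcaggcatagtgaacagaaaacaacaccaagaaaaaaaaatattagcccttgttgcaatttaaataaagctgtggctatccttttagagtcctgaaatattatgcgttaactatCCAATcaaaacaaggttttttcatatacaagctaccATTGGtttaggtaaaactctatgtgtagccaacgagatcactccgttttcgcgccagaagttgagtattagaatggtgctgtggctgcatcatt
H1f2: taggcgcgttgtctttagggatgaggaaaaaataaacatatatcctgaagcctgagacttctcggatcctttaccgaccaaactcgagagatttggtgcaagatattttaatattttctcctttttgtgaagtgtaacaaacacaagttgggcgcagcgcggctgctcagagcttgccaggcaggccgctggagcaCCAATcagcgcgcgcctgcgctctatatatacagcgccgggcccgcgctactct

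Both H2B promoters carry the octamer in the sense direction close to the gene, at position -30 in H2bc12 and -48 in H2bc18, with CCAAT boxes upstream of it. H2ac20 has the octamer on the opposite strand at -200 and a TATA core at -42. Of the 5 motifs, H2ac10 and H1f2 show CCAAT matches alone. Only exact letters were searched, so near forms, such as TTTCGCG in H2ac10 beside the searched TTTGGCG, were not counted. The octamer, CCAAT and GGTCCG were spread unevenly over the families. TATAAA was found in each family, in 3 of 5 H1, 5 of 6 H2A, 4 of 7 H2B and 4 of 6 H4 windows. These matches were counted on either strand and at any position, from -212 in H2bc22 to 41 in H4c1. The counts are thus not limited to matches just before the start. The octamer was in 5 of 7 H2B and 3 of 6 H2A windows and in 0 of 5 H1 and 0 of 6 H4 windows. The CCAAT box was in 5 of 5 H1, 6 of 6 H2A and 7 of 7 H2B windows but in 1 of 6 H4 windows. GGTCCG was in 5 of 6 H4 windows, 1 of 7 H2B windows and none of the H1 or H2A windows. Over all 24 windows the octamer was found in 33.3%, against 1.74% of 32851 promoter windows of the same length. CCAAT was found in 79.2% against 37.4%, TATAAA in 66.7% against 13.6%, GGTCCG in 25% against 8.25%, and TTTGGCG in 0 of 24 against 1.56%. For a motif as rare as TTTGGCG, 24 windows can hardly set 0 apart from that background. The windows of the divergent neighbours H2bc12 and H2ac12 share 277 bases, and those of H2bc1 and H2ac1 share 220, so these pairs count the same bases more than once. A match describes letters in a window and is not a bound site.

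The outermost mean levels over all arrays were 8.83 (H4c12), 7.98 (H2ac10) and 6.90 (H1f2), and 1.37 (H2ac12), 1.38 (H2ac15) and 1.46 (H2bc1, a testis form of H2B). The level of a probe depends on its own sequence, so these values give no order of RNA amounts between genes, and levels are compared only across arrays. Of the 26 genes, 9 had a mean at or above that of the median gene, 4.72.

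Several groups held 1 array that ran high for histone genes. Array HFD 6 was the highest of its group for 20 of 26 histone genes, while it was highest for 35.9% of all genes. BC 7 was highest for 17 of 26 (34.9% of all genes), SMG 5 for 17 of 26 (37.4%) and RMG 10 for 13 of 26 (35.7%). The ND arrays shared the top places, with 9, 9 and 8 genes, as did the L_FMG arrays with 8, 8 and 10.

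**Figure D1:**
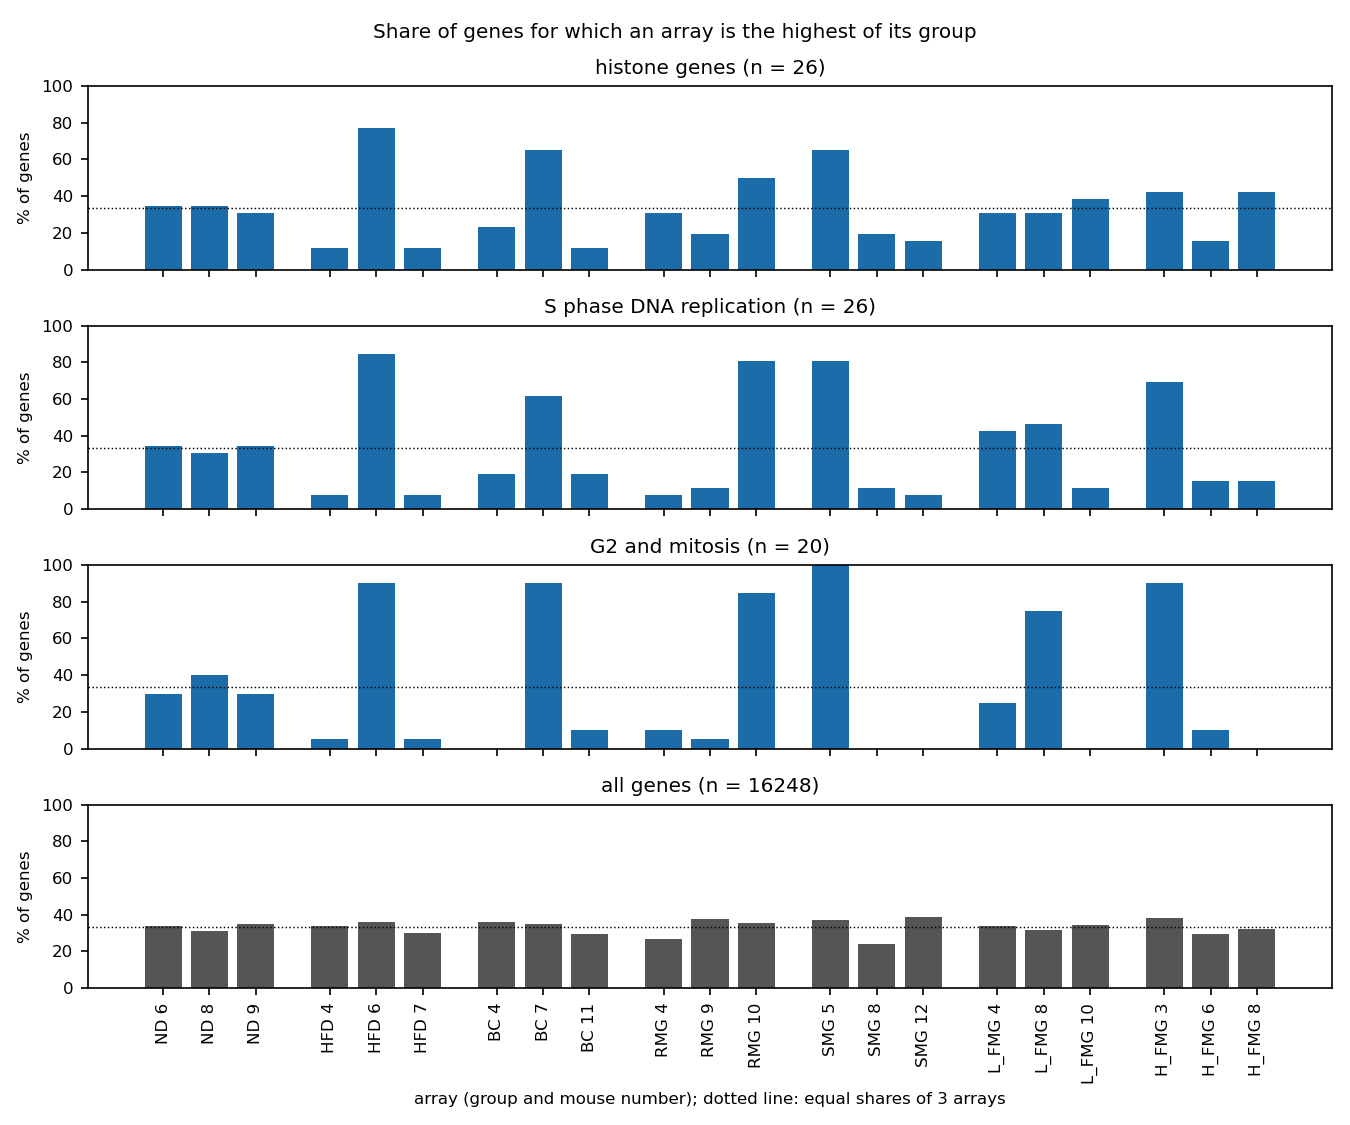
Each bar is the percent of genes for which an array had the highest level of its group of 3, for the 26 histone genes, the 26 S phase and 20 G2 and mitosis genes and all 16248 genes. HFD 6, BC 7, RMG 10 and SMG 5 stand above their group partners in the 3 upper panels, while over all genes the shares run from 23.8% (SMG 8) to 38.9% (SMG 12).

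The same arrays were high for genes of the dividing cell. Of 26 measured S phase genes, which copy DNA, HFD 6 was highest in 22, BC 7 in 16, RMG 10 in 21 and SMG 5 in 21. Of 20 measured genes of G2 and mitosis, which divide the cell, those arrays were highest in 18, 18, 17 and 20. H_FMG 3 was highest for 18 S phase and 18 mitotic genes but for 11 histone genes, the same number as H_FMG 8. L_FMG 8 was highest for 15 mitotic genes and for 8 histone genes. In H_FMG and L_FMG the array with most mitotic genes at the top thus did not stand apart in histone genes, and this difference was not tested.

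The first comparison asks how high-fat feeding alone changed the histone genes. 4 of the 26 genes (15.4%) rose in HFD against ND and none fell, with 3 genes of H2B and 1 of H2A among them. Over all genes 8.63% passed the same threshold (adjusted p under 0.05 by Benjamini-Hochberg in limma, a linear model per gene that shares its estimate of spread over genes), and 6.54% passed and were higher in HFD. Of all genes that passed, 75.8% were higher in HFD, and 91.5% when arrays were centred on their medians, a scaling that shifts every difference by 0.10. In 11 of the 26 genes every HFD array lay above every ND array, where 15.7% of all genes did so, and in 0 of 26 every HFD array lay below, where 13.0% of all genes did so. At an unadjusted p under 0.05 there were 8 of 26 histone genes, against 25.3% of all genes. The median change of the 26 genes was 0.17 log2 units, with 18 above 0. The median of all genes was -0.04, with 44.1% of them above 0. The histone median thus lay 0.21 above that of all genes, a gap that median centring cannot change. With quantile normalization the gap was 0.23. Without array HFD 6 the number that passed was 1 of 26, while the count over all genes dropped from 1403 to 368. Without ND 8 it was 2 of 26, with 987 of all genes.

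H2bc12, an H2B gene of the chromosome 13 cluster, changed most. Its levels were 3.83, 3.64 and 3.50 in ND and 4.81, 4.94 and 4.94 in HFD (means 3.66 ± 0.17 and 4.90 ± 0.07, SD, n = 3 each). The groups lay well apart, and the rise was 1.24 ± 0.20 log2 units (SE, limma adjusted p = 0.0031). It passed without each ND or HFD array in turn, and without HFD 6 the rise was 1.22 (limma adjusted p = 0.0306).

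H2ac20, an H2A gene on chromosome 3, had levels of 4.15, 4.28 and 4.13 in ND and 4.79, 5.28 and 4.88 in HFD. Every HFD array was above every ND array, HFD 6 was highest, and the rise was 0.80 ± 0.18 (limma adjusted p = 0.0082). Without HFD 6 it was 0.65 and no longer passed (limma adjusted p = 0.0669).

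H2bc18, an H2B gene on chromosome 3, had levels of 3.81, 3.55 and 3.86 in ND and 4.10, 4.76 and 4.24 in HFD. The groups did not overlap, and the rise of 0.62 ± 0.17 (limma adjusted p = 0.0277) was 0.43 without HFD 6 (limma adjusted p = 0.178). It also missed the threshold without ND 8 (limma adjusted p = 0.0959) and when ND and HFD were fitted alone (limma adjusted p = 0.0999).

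H2bc21, the H2B gene beside H2ac20, had levels of 5.03, 4.62 and 4.86 in ND and 5.52, 5.62 and 5.27 in HFD. The groups did not overlap, and the rise was 0.63 ± 0.19 (limma adjusted p = 0.0392). This call was lost without ND 8, ND 9, HFD 4 or HFD 6, with limma adjusted p between 0.0660 and 0.159.

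**Figure D2:**
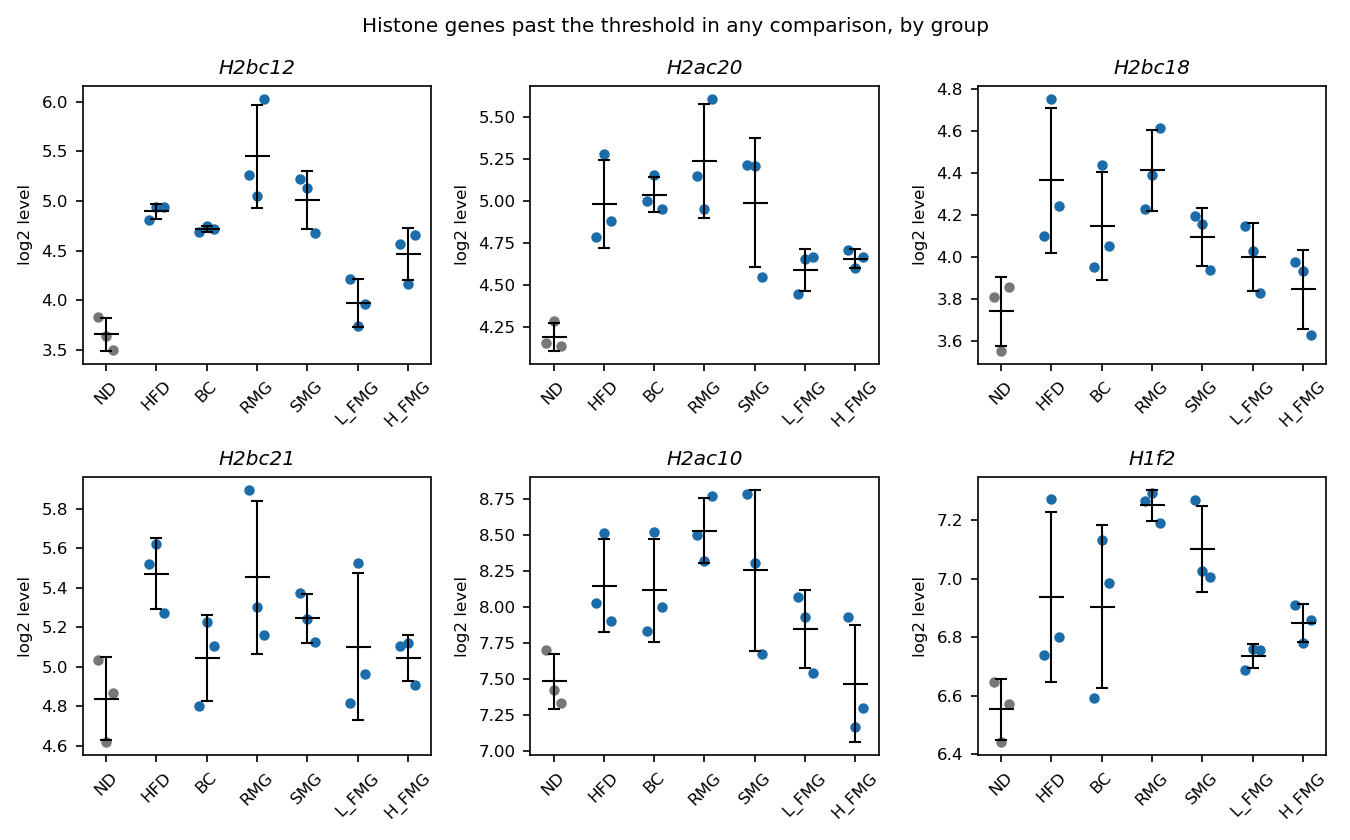
Log2 level of each array (dots), with the mean and SD of the 3 arrays (bars), for the 6 histone genes that passed the threshold in some comparison. In H2bc12 the ND dots lie between 3.50 and 3.83 and the HFD dots between 4.81 and 4.94, while RMG, with a mean of 5.45, is the highest group.

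No linker or H4 gene passed in HFD against ND. H1f2, the linker histone H1.2, had levels of 6.65, 6.44 and 6.57 in ND and 6.74, 7.27 and 6.80 in HFD, a difference of 0.38 ± 0.13 (limma adjusted p = 0.0757) that passed when arrays were centred on their medians (limma adjusted p = 0.0346). H2ac10 had levels of 7.70, 7.42 and 7.33 in ND and 8.03, 8.51 and 7.90 in HFD, a difference of 0.66 ± 0.25 (limma adjusted p = 0.0982). In both genes the groups did not overlap and HFD 6 was highest. H4c9 differed by 0.93 ± 0.32 (limma adjusted p = 0.0742). The 7 H4 genes had a median difference of 0.19 and 0 of them passed, and the 5 H1 genes had a median of 0.13 with 0 passing. The lowest value was that of H2bc9, at -0.59 ± 0.38 (limma adjusted p = 0.347), whose ND and HFD arrays overlapped. The testis forms H1f6, H2ac1 and H2bc1 differed by -0.02, -0.15 and 0.14. H2bc1 and H1f6 are dim, with mean levels of 1.46 and 2.80, so a change in them could be missed.

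**Figure D3:**
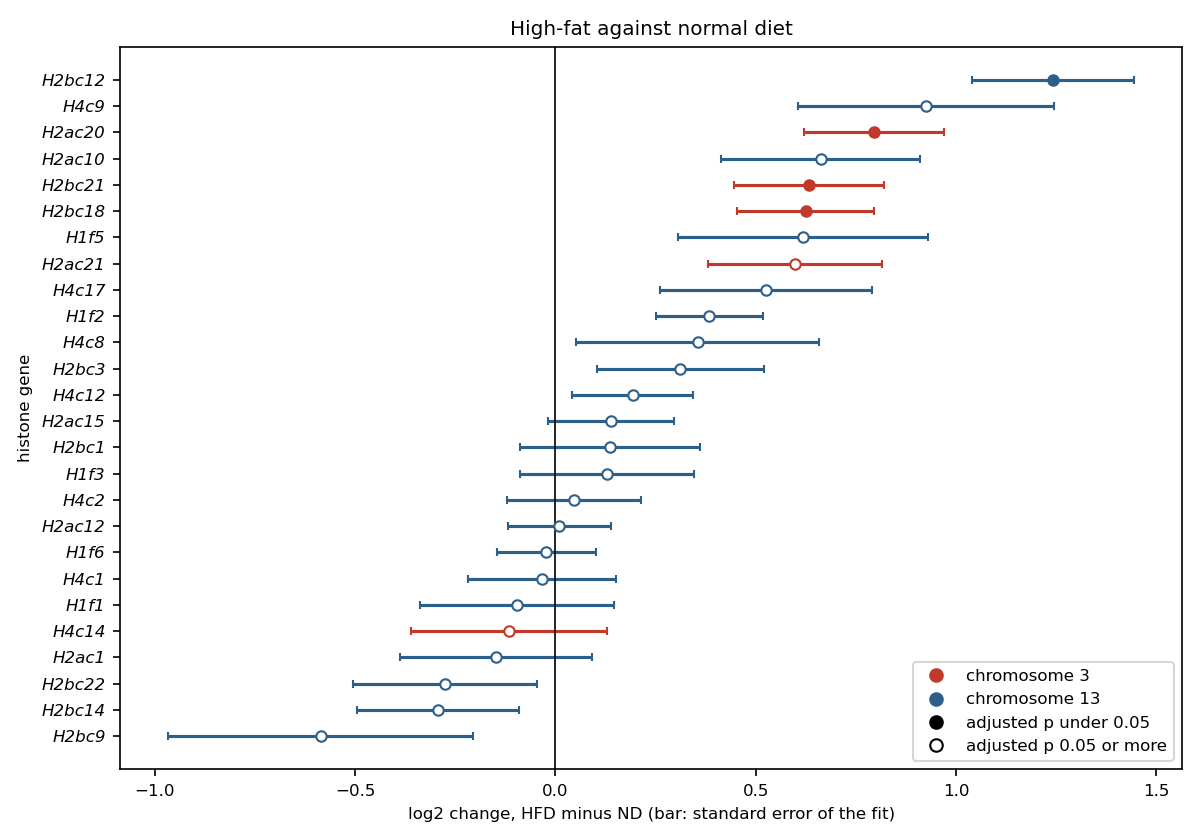
Difference between HFD and ND in log2 units with the standard error of the fit for each of the 26 histone genes. Filled points passed an adjusted p of 0.05: H2bc12 on chromosome 13 and H2ac20, H2bc21 and H2bc18 on chromosome 3.

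By position, 3 of the 5 genes on chromosome 3 rose and their median difference was 0.62, while 1 of the 21 on chromosome 13 rose and their median was 0.14; over all genes 6.54% rose. Without HFD 6, H2bc12 on chromosome 13 was the 1 histone gene that passed, and 0 of the 5 on chromosome 3 did. The clusters were not tested against each other, and the chromosome 13 genes include most of the dim probes. Of the 9 histone genes at or above the median level 2 passed, where 14.3% of all such genes did, and of the 17 dimmer ones 2 passed, where 2.99% of all such genes did. The last gene of the chromosome 3 cluster, H2bc18, is followed by Fcgr1, an antibody receptor of macrophages, which rose by 1.99 ± 0.31 (limma adjusted p = 0.0031). At the other end of the cluster lies Bola1, which differed by 0.10 (limma adjusted p = 0.670). H2ac21, the outermost gene on that side, had 2 probes that differed in sign: its brighter probe was at 0.60 ± 0.22 (limma adjusted p = 0.0878) and the dimmer at -0.23.

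Because histone genes are near-copies, 37 further histone probes carried several symbols, and 34 of them had distinct values. They name no single gene and entered no gene test, so they are given by family. Of the 7 distinct H2B probes 6 had every HFD array above every ND array, and their differences ran from 0.28 to 1.46 with a median of 0.61. The same held for 2 of 9 H2A, 2 of 12 H3 and 1 of 5 H4 probes, with medians of 0.08, 0.10 and 0.25. A probe shared by H1 and H2B genes had every HFD array below every ND array, at -0.34. An H2A probe of 3 genes of the chromosome 3 cluster, H2ac20 among them, had levels of 11.1, 11.1 and 10.3 in ND and 10.5, 10.6 and 10.5 in HFD, a difference of -0.32, while the probe of H2ac20 alone rose. Against the 15.7% of all genes with HFD wholly above ND, the shares of the shared H2A, H3 and H4 probes, 22.2%, 16.7% and 20%, lay near that background, and the 85.7% of shared H2B probes lay above it. The shared probes of a family name the same or overlapping sets of near-copies, so they do not count separate genes as that background does. Some of the H2B sets include H2bc12. Among the single-gene probes HFD lay wholly above ND in 3 of 8 H2B, 3 of 6 H2A, 2 of 5 H1 and 3 of 7 H4 genes. By that count H2B was not ahead, while 3 of 8 H2B, 1 of 6 H2A, 0 of 5 H1 and 0 of 7 H4 genes passed the threshold. The families were not tested against each other.

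**Figure D4:**
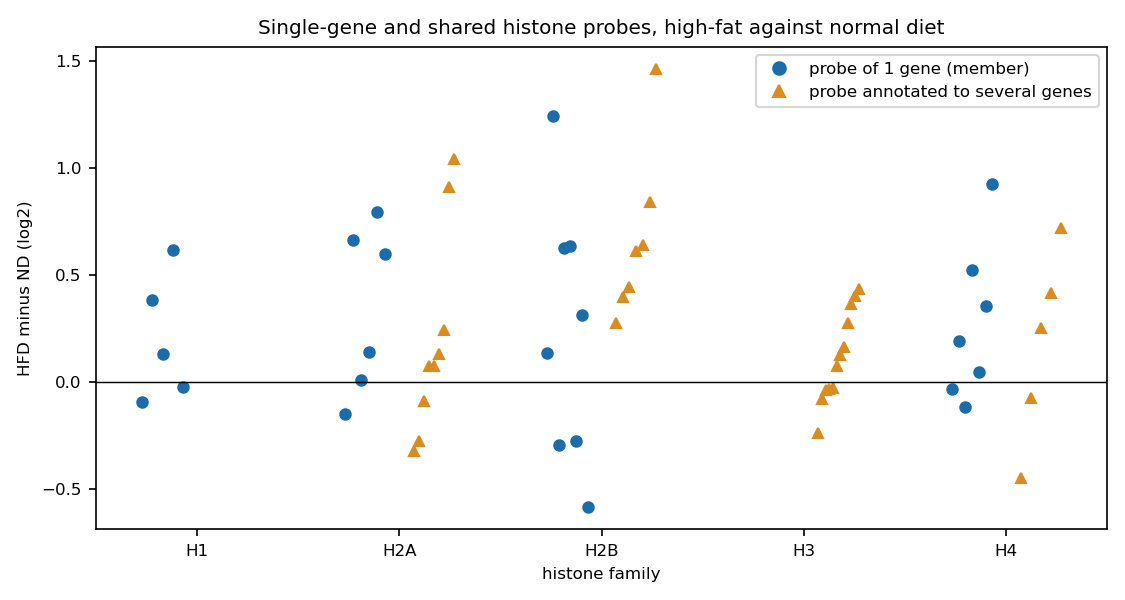
Difference between HFD and ND in log2 units for single-gene histone probes (circles) and for distinct probes annotated to several histone genes (triangles), by family; the 1 probe shared by H1 and H2B is not drawn. The H2B triangles all lie above 0, between 0.28 and 1.46.

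Genes that work with the histones were read in the same comparison, where 8.63% of all genes passed and 6.54% passed and were higher in HFD. Slbp, which binds the stem-loop of histone mRNA, differed by 0.06 (limma adjusted p = 0.677), and Npat, the histone gene coactivator, was not analysed here. Of 18 measured genes of histone mRNA synthesis and 3′ processing, 2 rose and 0 fell: Cpsf2 by 0.64 and Cstf3 by 0.43, both of cleavage complexes that also act on other mRNAs. Of 14 measured histone chaperones and chromatin assembly genes 3 rose and 0 fell, namely Daxx by 0.65, Hat1, which acetylates new histone H4, by 0.64, and Supt16, a subunit of the FACT chaperone, by 0.42. The 9 measured replication-independent histones had a median of 0.09 and 0 passed, which so few genes can hardly set apart from the all-gene share. Of the 9, 1 had an unadjusted p under 0.05, against 25.3% of all genes. Among these 9 histones, Cenpa, the histone of centromeres, differed by 0.48 (limma adjusted p = 0.0595) and H2az1 by 0.25 (limma adjusted p = 0.498).

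Beside the 8.63% of all genes that passed in this comparison, 6.54% passed and were higher in HFD. Of 26 measured S phase genes 6 rose and 0 fell, with a median of 0.23. Pcna, the clamp of the DNA polymerase, rose by 1.03, Tk1, which makes thymidine phosphate, by 0.97, and the helicase subunits Mcm6 and Mcm3 by 0.88 and 0.96. Of 20 measured G2 and mitosis genes 7 rose and 0 fell, with a median of 0.74, among them Ect2 by 1.38 and Aurkb by 0.68. The mean level of the S phase list ran from 4.84 to 4.89 over the ND arrays and from 5.13 to 5.42 over the HFD arrays. Cell type markers moved in the same comparison. Of 12 macrophage markers 10 rose and 0 fell, and their mean level ran from 7.75 to 8.13 in ND and from 8.85 to 9.03 in HFD. Of 9 fibroblast and progenitor markers 4 rose and 0 fell (8.01 to 8.45 against 8.80 to 8.86). Of 8 mast cell markers 2 rose, with 5 of the 8 above 0. Of 3 T and NK cell markers 1 rose (Il7r), while Cd2 was at -0.26 and Cd8a at -0.10. Of 7 neutrophil markers 1 rose (Csf3r), with 4 of the 7 above 0 and a list median of 0.03. Of 7 adipocyte markers 3 fell (9.83 to 10.3 against 9.58 to 9.84), and of 8 endothelial markers 2 fell. The B cell list had 0 of 7 and the erythroid list 0 of 2 past the threshold, with 1 and 0 at an unadjusted p under 0.05. Of 9 germ cell markers 1 rose (Odf1, by 0.52), with 2 of the 9 above 0. Their mean level ran from 4.39 to 4.45 in ND and from 4.32 to 4.53 in HFD. The part of these lists in the histone result was not tested.

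Across all 7 diets, 4 of the 26 genes (15.4%) differed by the moderated F test, against 6.47% of all genes: H2bc12 (limma adjusted p = 0.0021), H2ac20 (0.0085), H1f2 (0.0251) and H2ac10 (0.0409). H2bc12 and H2ac20 passed in every alternative in which they were tested, while H1f2 missed the threshold in 5 of 28 and H2ac10 in 14 of 28. The count moved with single arrays, as did that over all genes: it was 2 of 26 without ND 8, RMG 4, RMG 9 or RMG 10 (567 to 679 of all genes) and 7 of 26 without SMG 12 (1485 of all genes), beside 1051 of all genes with every array. Of the other genes H4c12 came nearest (limma adjusted p = 0.0540).

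H2bc12 had mean levels of 3.66 in ND, 3.97 in L_FMG, 4.46 in H_FMG, 4.72 in BC, 4.90 in HFD, 5.01 in SMG and 5.45 in RMG. Its arrays read 4.22, 3.74 and 3.96 in L_FMG, 4.57, 4.16 and 4.66 in H_FMG, 4.69, 4.75 and 4.72 in BC, 5.23, 5.13 and 4.68 in SMG and 5.26, 5.05 and 6.03 in RMG. L_FMG overlapped ND and lay below every HFD array, and H_FMG lay between ND and HFD without overlap with either. H2ac20 read 4.44, 4.66 and 4.66 in L_FMG, 4.71, 4.60 and 4.66 in H_FMG, 5.0, 5.15 and 4.95 in BC, 5.22, 5.20 and 4.55 in SMG and 5.15, 4.95 and 5.61 in RMG. Its fermented grain arrays lay above every ND array and below every HFD array.

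H1f2 was highest in RMG, at 7.27, 7.29 and 7.19, and read 6.59, 7.13 and 6.99 in BC, 7.27, 7.03 and 7.01 in SMG, 6.69, 6.76 and 6.76 in L_FMG and 6.91, 6.78 and 6.86 in H_FMG. H2ac10 read 8.50, 8.32 and 8.77 in RMG, 7.83, 8.52 and 8.0 in BC, 8.78, 8.30 and 7.67 in SMG, 8.07, 7.93 and 7.54 in L_FMG and 7.93, 7.17 and 7.30 in H_FMG. Its H_FMG mean, 7.47, was close to the ND mean of 7.48, and the H_FMG arrays spread more widely. H2bc18 read 3.95, 4.44 and 4.05 in BC, 4.23, 4.39 and 4.62 in RMG, 4.20, 4.16 and 3.94 in SMG, 4.15, 4.03 and 3.83 in L_FMG and 3.98, 3.93 and 3.63 in H_FMG. H2bc21 read 4.80, 5.22 and 5.10 in BC, 5.90, 5.30 and 5.16 in RMG, 5.37, 5.24 and 5.12 in SMG, 4.82, 5.52 and 4.96 in L_FMG and 5.10, 5.12 and 4.91 in H_FMG.

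**Figure D5:**
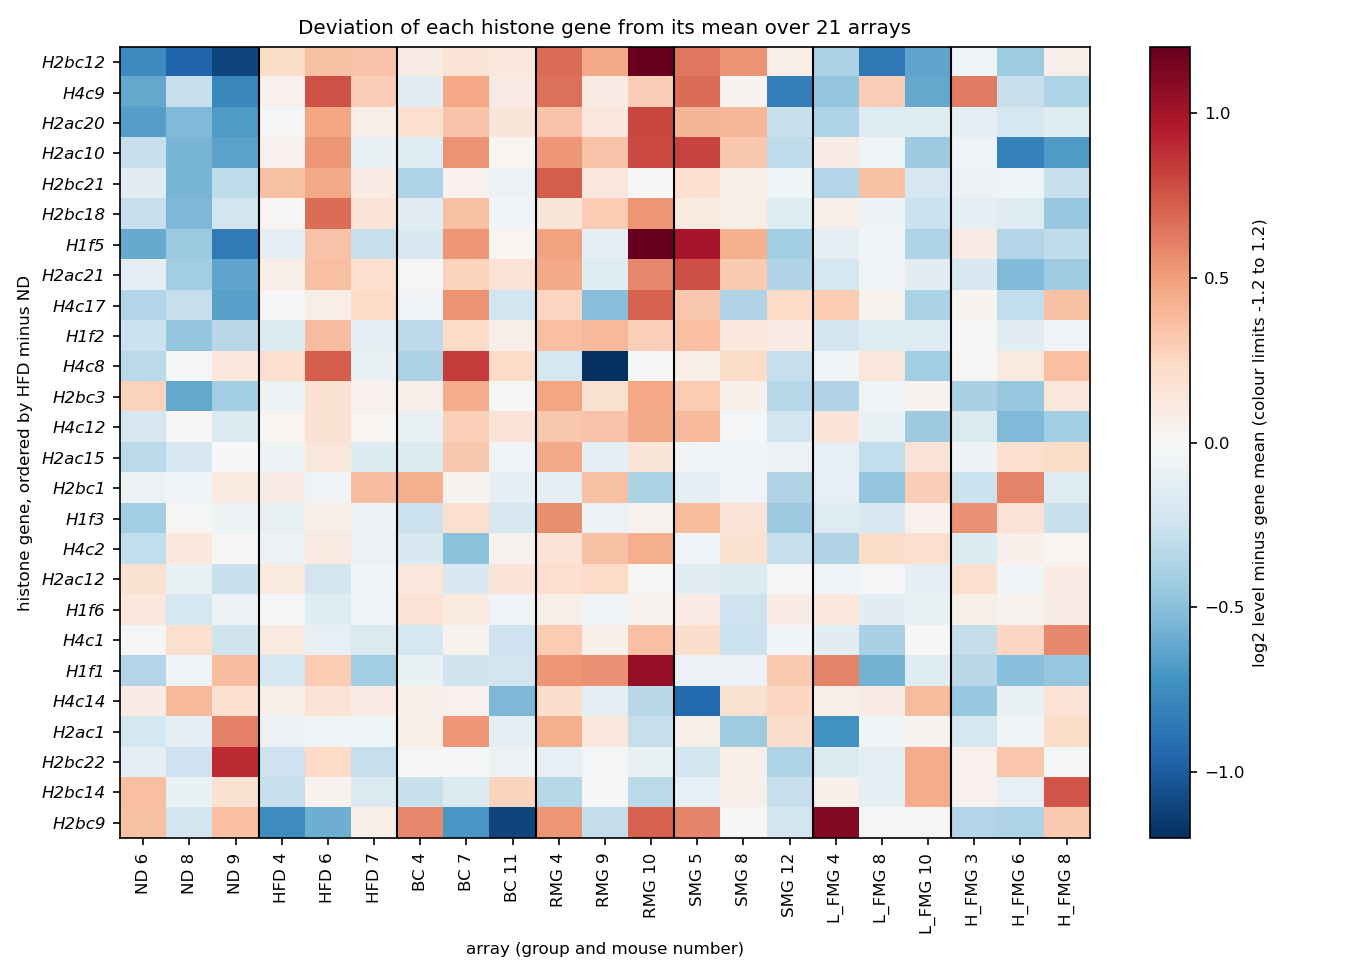
Each cell is the log2 level of a histone gene on an array minus that gene's mean over 21 arrays; genes are ordered by the difference between HFD and ND, and vertical lines separate the groups. This order itself places genes that are low in ND relative to HFD at the top. Many of these upper rows are high in RMG, but not on every RMG array: H1f5 read 3.38 on RMG 9, against a mean of 3.49. Single columns such as HFD 6 and BC 7 are high over many genes.

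The supplements were each compared with HFD, and these comparisons share the same 3 HFD arrays, HFD 6 included. None of the 26 histone genes passed the limma threshold in any of the 5 comparisons, and the shares of all genes that passed were 0.0% for BC, RMG, SMG and L_FMG and 0.00615% for H_FMG. The H_FMG count over all genes depended on the fit: it was 1, and 257 without H_FMG 3, 566 with array weights, and 0 without any other single array of the pair or with median centring. With array weights 1 histone gene passed in H_FMG against HFD, H4c12, at an all-gene count of 566 of 16248.

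In both fermented grain groups more histone genes lay below their HFD mean than above it. In L_FMG against HFD 19 of 26 were below 0 and 7 above, where 51.2% of all genes were above. The median was -0.17 (all genes 0.00), and 3 had an unadjusted p under 0.05, against 8.66% of all genes. H2bc12 differed by -0.93 ± 0.20 (limma adjusted p = 0.454) and H2ac20 by -0.40 ± 0.18 (limma adjusted p = 0.547). All 6 H2A genes were below 0, though the very dim H2ac12 and H2ac15 only by a little, at -0.01 and -0.04. H2bc9 was at 0.79 and H2bc14 at 0.27. In H_FMG against HFD 17 of 26 were below 0 and 9 above, where 53.6% of all genes were above. The median was -0.10 (all genes 0.02), and 6 had an unadjusted p under 0.05, all 6 below 0, against 14.5% of all genes. H2bc18 differed by -0.52 ± 0.17 (limma adjusted p = 0.178) and H4c12 by -0.44 ± 0.15 (limma adjusted p = 0.185), H2bc14 was at 0.38 and H4c1 at 0.24. All 5 chromosome 3 genes were below 0, between -0.59 and -0.23. The median of the 26 genes moved with single arrays: it was -0.035 without HFD 6, -0.064 without H_FMG 3, -0.16 without H_FMG 8, -0.17 without HFD 4 and -0.19 without HFD 7, and -0.17 and -0.16 with quantile normalization and median centring. The S phase list had mean levels of 4.85 to 5.08 in L_FMG and 4.88 to 5.13 in H_FMG, and the macrophage list 8.18 to 8.61 and 7.76 to 8.58. Their part in the histone values was not tested.

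In RMG 20 of 26 histone genes were above their HFD mean, against 54.1% of all genes. All 5 H1 and all 6 H2A genes were among them. Of these, H2ac12 and H2ac15 are very dim, with mean levels of 1.37 and 1.38 where the lowest value is 0.84. The median of the 26 genes was 0.19 (all genes 0.01), and 4 had an unadjusted p under 0.05, against 2.82% of all genes. The median was 0.11 without RMG 4 and 0.31 without RMG 9. H1f1, the linker histone H1.1, differed by 0.82 ± 0.24 and H2bc12 by 0.55 ± 0.20, while H4c8 was at -0.80 ± 0.30 and H2bc1 at -0.18. Adjusted p was 1.00 for each of these in limma. H1f1 read 3.39, 3.41 and 3.92 in RMG against 2.65, 3.17 and 2.45 in HFD, without overlap. The S phase list ran from 5.35 to 5.63 in RMG, the macrophage list from 9.05 to 9.19 and the germ cell list from 4.27 to 4.99.

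In BC and SMG the values lay on both sides of 0. In BC against HFD 11 of 26 were above 0 (all genes 52.3%), and the median was -0.03. There 1 gene had an unadjusted p under 0.05 (all genes 5.18%), namely H2bc21 at -0.43 ± 0.19 (limma adjusted p = 0.917). H2bc18 was at -0.22, H2ac1 at 0.21 and H1f6 at 0.16. In SMG against HFD 13 of 26 were above 0 (all genes 51.7%), the median was -0.01, and 0 had an unadjusted p under 0.05 (all genes 1.85%). The genes with the smallest p there were H2bc9 at 0.55 and H1f2 at 0.16 among those above 0, and H2bc18 at -0.27 and H2bc1 at -0.31 among those below.

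The doses of fermented grain were compared last. In H_FMG against L_FMG 0 of 26 histone genes passed in limma (0.0% of all genes), and 1 had an unadjusted p under 0.05 (all genes 3.91%), H2bc12 at 0.49 ± 0.20 (limma adjusted p = 0.998). H4c1 was at 0.36, H4c12 at -0.25 and H1f1 at -0.39. The median over the 26 genes was 0.07, with 15 above 0 (all genes 51.8%), and no order of the doses was detectable with 3 arrays each.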

How the data were processed

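Total RNA of epididymal fat was labelled with a GeneChip whole-transcript kit, per the labels' protocols. The deposited values are log2 levels per probe and array; the authors' summarisation and normalization, and the log base, are not given in any source used here, and base 2 was taken from the range, 0.84 to 12.7. Of 24292 probes 24291 had all values, and 17067 of these carried 1 symbol, which gave 16248 genes. The table is held in part: few genes of chromosomes 7, 8, 9 and X and part of 6 were analysed. No pair of arrays was identical.

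All 21 arrays were fitted with limma 3.58.1 in R 4.3.3, 1 coefficient per group, intensity trend, two-sided p-values and Benjamini-Hochberg adjustment over all genes (threshold 0.05). The fit was tested on simulated data. The histone genes, gene lists and rules were chosen with earlier results of these data known. Named are genes past the threshold, otherwise those with the smallest p in each direction, and up to 4 per list. Alternatives were quantile normalization, median centring, dim genes left out (under 4.72), the mean of a gene's probes, no trend, 2 groups alone, array weights, a replicate block and each array left out. No label gives a batch.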

Additional observations from a re-analysis of the deposited data

How the results depend on the processing

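For HFD against ND the number of histone genes that passed was 4. Leaving out 1 array gave 1 to 4, with 1 without HFD 6 and 2 without ND 8. Leaving out dim genes gave 2, because 9 histone genes were then tested and H2bc12 and H2bc18 were not among them, and median centring gave 5. The median change of the 26 genes was 0.17, with 0.27 after median centring, which shifts all genes by 0.10, and 0.60 over the 9 brighter genes. Over those 9 the median was -0.30 in L_FMG and -0.38 in H_FMG against HFD and -0.057 in H_FMG against L_FMG, where the sign turned. Leaving out 1 array moved the last value between 0.0038 and 0.083. For any difference among the diets the count of 4 became 2 with quantile normalization, 10 with array weights, and 2 to 7 without 1 array. All genes moved with it, from 1051 to 1000, 2695, and 567 to 1485. In H_FMG against HFD array weights gave 1, with 566 of all genes in place of 1, and the cause was not tested. Leaving out 1 array moved the median in H_FMG against HFD between -0.19 and -0.035 and in RMG against HFD between 0.11 and 0.31. All genes past the threshold in HFD against ND ranged from 368 to 2432. None of 30 named changes turned its sign.

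The mouse numbers did not pair the arrays: over 18 pairs of arrays with the same number the correlation of deviations ran from -0.30 to 0.18, with 2 over 0.1. A fit with the number as a replicate block kept the count at 4 in HFD against ND and at 4 over the diets. With 3 arrays per group, their number limits what can be detected.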
